A study of Homo sapiens with 2 samples.

Results

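The cells described here are the human umbilical vein endothelial cells (HUVECs) with the highest share of RNA from 6 genes, MGP, FABP4, FABP5, CLU, RNASE1 and GIMAP7. HUVECs are primary cells of the umbilical vein wall, and they were the lining of microfluidic devices with 50 µm channels, grown for about 48 hours and then exposed to a 4 hour flow of red blood cells. The channels of 1 library received a mixture in which 5% of the red cells had been dehydrated by nystatin and sucrose treatment, to 40 to 42 g/dL mean corpuscular hemoglobin (5% pdRBC); those of the other received healthy red cells alone (hRBC), which also make up the rest of the mixture. Dehydration stiffens red cells. The 5′ transcriptome of single cells was read in 1 library per group, so no difference below has a replicate check and no p-value is given. The labels do not give the number of donors, so cells of different donors and different states of one donor's cells cannot be told apart. A barcode was kept at 5000 or more UMIs (counted RNA molecules) and at most 10% mitochondrial UMIs, and the members are the top 10% of kept barcodes of both libraries pooled, by the share of UMIs from the 6 genes. They number 213 of 2138 kept barcodes and of 5493 deposited ones.

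The 6 genes have separate known roles. MGP is a secreted, vitamin K-dependent inhibitor of calcification that also binds bone morphogenetic proteins. FABP4 and FABP5 carry fatty acids inside cells, and FABP4 marks capillary endothelium as well as fat cells. CLU is a secreted chaperone that restrains complement, RNASE1 is a ribonuclease that endothelial cells release, and GIMAP7 belongs to a family of GTPases best known from lymphocytes.

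Members made up 11.9% of kept barcodes with 5% pdRBC (163 of 1369, exact 95% binomial interval 10.2% to 13.7%) and 6.50% with hRBC (50 of 769, 4.86% to 8.48%). These intervals, and all intervals below, cover counting error only. The 2 libraries differ in how many barcodes reach the filter: 1369 of 1635 deposited barcodes with 5% pdRBC and 769 of 3858 with hRBC, and the median deposited barcode held 9425 UMIs with 5% pdRBC against 1381 with hRBC. The part of this difference in the members' shares was not tested. Within the kept barcodes the median depth was 10063 UMIs in members against 10217 in the remaining barcodes with 5% pdRBC, and 13605 UMIs in members against 12258 in the remaining barcodes with hRBC. At an equal depth of 5000 UMIs the median member had 2229 genes detected and the median remaining barcode 2223 with 5% pdRBC, and with hRBC 2188 in members and 2208 in the remaining barcodes. The median mitochondrial share was 1.72% in members and 1.81% in the remaining barcodes with 5% pdRBC, and with hRBC 1.41% in members and 1.83% in the remaining barcodes.  Of the barcode sequences, 9 occur in both libraries, and none of these is a member (0).

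The members are the upper end of a range and not a group set apart. The lowest member had a 6-gene share of 0.207455% and the highest barcode outside had 0.206759%. Within 20% of that limit lay 48 members above it and 64 other barcodes below it. The median member held 39 UMIs of the 6 genes and no member fewer than 11; the median remaining barcode held 4, and 209 kept barcodes held 0. When members were chosen on a random 50% of each cell's UMIs, 192 of the 213 members (90.1%) were chosen again. Those UMIs are part of the ones that chose the members, so a high overlap was built in.

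**Figure D1:**
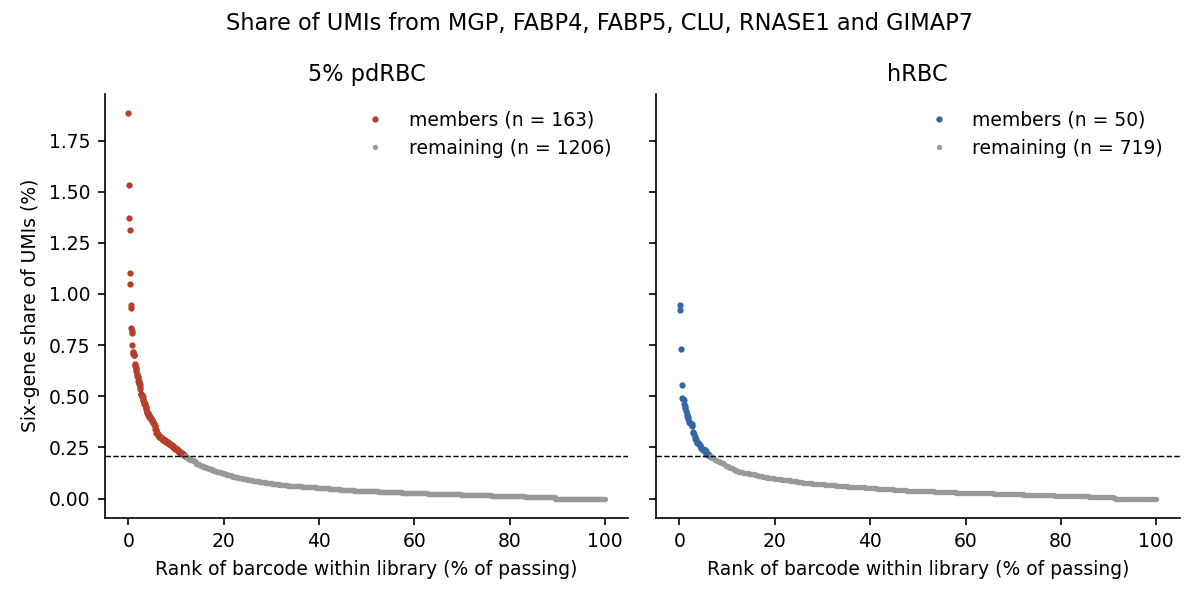
Share of UMIs from the 6 genes (vertical axis, %) in each kept barcode, ranked within its library (horizontal axis, % of kept barcodes), 5% pdRBC on the left and hRBC on the right. Coloured points are the 163 and 50 members, grey points the remaining barcodes, and the dashed line is the lowest member's share, which the points cross without a gap.

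The values of the 6 genes chose the members and are given as a description. MGP led the share: it was the most abundant of the 6 genes in 133 of 163 members with 5% pdRBC and in 45 of 50 with hRBC, and gave 53.9% and 60.2% of the members' 6-gene UMIs in these libraries. Its summed level was 2203 UMIs per 1e6 UMIs (CPM) in members against 153 CPM in the remaining barcodes with 5% pdRBC, and 2134 CPM in members against 184 CPM in the remaining barcodes with hRBC. FABP5 was second, at 762 CPM in members against 139.7 CPM in the remaining barcodes with 5% pdRBC and 461 CPM in members against 111 CPM in the remaining barcodes with hRBC. FABP4 reached 406 CPM in members against 25.0 CPM in the remaining barcodes with 5% pdRBC, and 336 CPM in members against 27.0 CPM in the remaining barcodes with hRBC. CLU, RNASE1 and GIMAP7 were at 308, 341 and 63.7 CPM in members with 5% pdRBC and at 222, 318 and 73.9 CPM in members with hRBC. The 6 genes were not all detected in every member: 37 of 163 members with 5% pdRBC and 15 of 50 with hRBC had no FABP4 UMI, while none (0) lacked MGP.

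A gene left out of the score still differed along it. All score genes were chosen with earlier results of these data known. High folds here may therefore be built in, and they are no independent test of the score. With members chosen on the other 5 genes, FABP4 was 13.1-fold higher in members than in the remaining barcodes with 5% pdRBC and 8.51-fold higher with hRBC. MGP, left out in the same way, was 8.57-fold and 6.87-fold higher in these libraries. RNASE1 showed the smallest such folds, 2.89 with 5% pdRBC and 2.39 with hRBC, and the other 3 genes lay between. Over single cells the pairs of genes were only loosely related. The highest rank correlation was that of MGP with FABP4, 0.42 over 1369 cells with 5% pdRBC and 0.33 over 769 cells with hRBC. The counts were sparse, and each cell was thinned to 5000 UMIs for these correlations.

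The members carried the marks of endothelial cells. PECAM1, an adhesion molecule of endothelial junctions, was at 893 CPM in members against 669 CPM in the remaining barcodes with 5% pdRBC, and 768 CPM in members against 720.1 CPM in the remaining barcodes with hRBC; PECAM1 and CDH5 were picked after their values were seen. CDH5, the cadherin of those junctions, was at 512 CPM in members against 629 CPM in the remaining barcodes with 5% pdRBC. In hRBC members CDH5 was at 569 CPM, against 653 CPM in the remaining hRBC barcodes. Of 17 measured genes of endothelial identity, 2 were higher in members by the limits given in the next paragraph, and none (0) lower. Over all measured genes 4.00% were higher and 4.32% lower. Log2 folds lay above 0 for 13 of the 17 with 5% pdRBC and for 9 with hRBC. TEK, below 0 in both libraries, had log2 folds of -0.57 with 5% pdRBC and -0.84 with hRBC and was not called. EMCN, a sialomucin of capillary and venous endothelium, was 1.78-fold higher (1.61 to 1.95) with 5% pdRBC and 1.66-fold higher (1.43 to 1.91) with hRBC. SOX18, a transcription factor of the vessel wall, was 2.05-fold higher (1.89 to 2.22) with 5% pdRBC and 2.32-fold higher (2.11 to 2.54) with hRBC. FABP4 is also a fat cell gene, but of 8 adipocyte markers 6 were at 0 in members with 5% pdRBC and 7 with hRBC, ADIPOQ, PLIN1 and LEP among them, and the list summed to 2.17 and 1.43 CPM, against 1.77 and 2.17 CPM in the remaining barcodes of the same libraries. Erythroid genes, which would show red cells left over from perfusion, gave 0 UMIs in members of both libraries over 8 markers, and 6 neutrophil markers gave 0. Fibroblast and mural markers summed to 309.5 CPM in members and 339 CPM in the remaining barcodes with 5% pdRBC, and with hRBC to 387 CPM in members and 371 CPM in the remaining barcodes; RGS5, a known mural gene that HUVECs also express, made up nearly all of it at 299 CPM in members against 331 CPM in the remaining barcodes with 5% pdRBC. The 6 lymphatic markers summed to 24.4 CPM in members against 12.5 CPM in the remaining barcodes with 5% pdRBC, and with hRBC to 17.1 CPM in members against 10.3 CPM in the remaining barcodes. PDPN and CCL21 among them were at 0 in members and in the remaining barcodes of both libraries, so they do not separate the groups. The UMIs in members came from PROX1, LYVE1 and FLT4 in both libraries, and from RELN as well with hRBC. The part of this list in the results was not tested.

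Beyond the 6 genes, members held more RNA of MHC class I genes, CD40, ACE, STMN1 and TUBA1A, and less of MT2A, RGS4, PTX3 and some immediate early genes. All other genes were compared between members and the remaining barcodes of the same library, as CPM of summed UMIs with the 6 genes left out of the totals and 0.5 UMIs added to each sum. A gene was measured at 200 or more UMIs in each library, and is called higher or lower here at a fold of 1.5 or more in the same direction in both libraries, with both 95% counting intervals leaving out 1; folds are followed by that interval. Of 6301 measured genes, 252 were higher in members (4.00%) and 272 were lower (4.32%), 8.32% in all. The median log2 fold over all measured genes was -0.04 with 5% pdRBC and -0.08 with hRBC. The libraries, which are separate samples, gave the same sign for 73.8% of measured genes, and their log2 folds had a Pearson correlation of 0.67 across genes, which are not independent replicates.

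**Figure D2:**
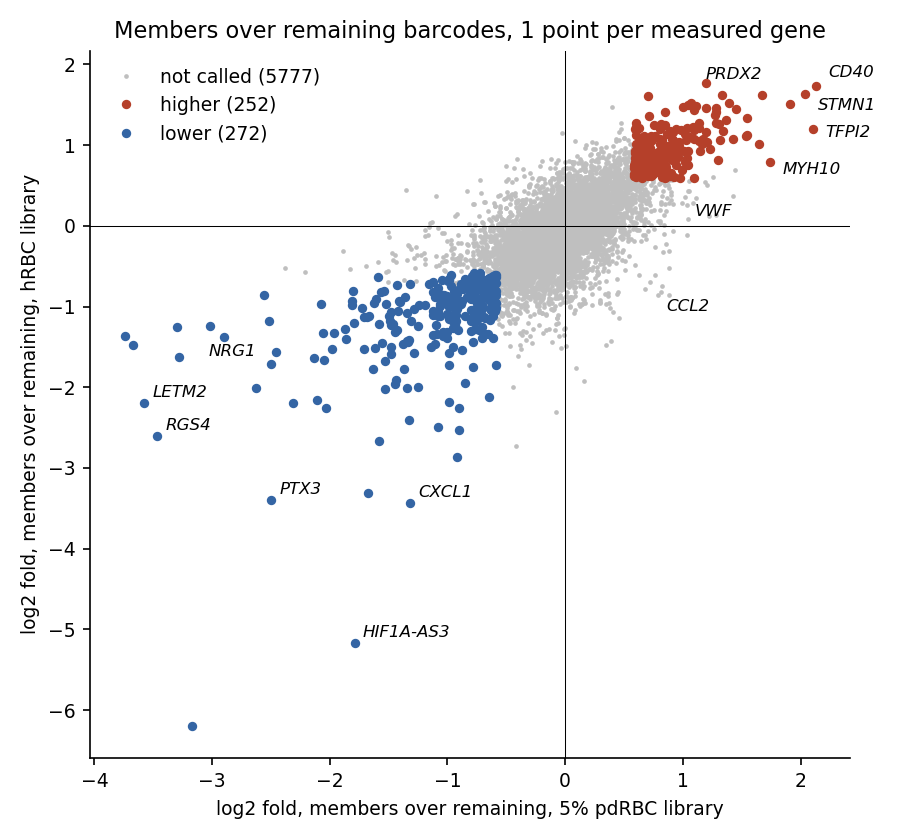
Log2 fold of members over remaining barcodes in the 5% pdRBC library (horizontal axis) and the hRBC library (vertical axis), 1 point for each of the 6301 measured genes; red marks the 252 genes higher and blue the 272 lower in both. CD40, STMN1 and TFPI2 lie at the upper right and RGS4 and LETM2 at the lower left, while CCL2 lies on opposite sides of 0 in the 2 libraries; points of the genes with 0 UMIs in hRBC members, such as HIF1A-AS3, depend on the added 0.5 UMIs.

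Among the 15 genes with the largest folds higher in both libraries were CD40, STMN1, TUBA1A and ACE. CD40, a receptor through which T cells and platelets activate endothelium, was at 63.4 CPM in members against 14.5 CPM in the remaining barcodes with 5% pdRBC. In hRBC members CD40 was at 58.5 CPM, against 17.7 CPM in the remaining hRBC barcodes. That is 4.37-fold higher (3.44 to 5.51) with 5% pdRBC and 3.34-fold higher (2.29 to 4.68) with hRBC. STMN1, which destabilises microtubules, was at 196 CPM in members against 47.6 CPM in the remaining barcodes with 5% pdRBC, and 157 CPM in members against 50.6 CPM in the remaining barcodes with hRBC, though 1 cell held 30.0% of its UMIs among hRBC members. TUBA1A, an alpha-tubulin, was at 698 CPM in members against 219 CPM in the remaining barcodes with 5% pdRBC, and 756 CPM in members against 245 CPM in the remaining barcodes with hRBC, 3.19-fold higher with 5% pdRBC and 3.08-fold with hRBC; reads of tubulin genes that resemble each other may be split. ACE, the angiotensin-converting enzyme on the endothelial surface, was 3.76-fold higher (3.18 to 4.43) with 5% pdRBC and 2.84-fold higher (2.08 to 3.76) with hRBC, and PRCP, a lysosomal peptidase that inactivates angiotensin II, was 2.62-fold higher (2.34 to 2.92) with 5% pdRBC and 2.88-fold higher (2.44 to 3.37) with hRBC. ITM2B, a membrane protein that limits amyloid formation, was at nearly the same level in members of both libraries: 549 CPM in members against 201 CPM in the remaining barcodes with 5% pdRBC. In hRBC members ITM2B was at 552 CPM, against 203 CPM in the remaining hRBC barcodes. PRDX2, a peroxiredoxin that removes hydrogen peroxide, was 2.53-fold higher (2.26 to 2.81) with 5% pdRBC and 3.07-fold higher (2.63 to 3.56) with hRBC, and its relative PRDX1 was 1.75-fold higher (1.67 to 1.85) with 5% pdRBC and 2.41-fold higher (2.24 to 2.58) with hRBC. HSPB1, a small heat shock protein that binds actin, was the most abundant of these 15 genes, at 1677 CPM in members against 649 CPM in the remaining barcodes with 5% pdRBC. In hRBC members HSPB1 was at 1905 CPM, against 766 CPM in the remaining hRBC barcodes. LTA4H, which makes leukotriene B4, was 2.47-fold higher with 5% pdRBC and 2.39-fold with hRBC. MGST2, a glutathione transferase that can make leukotriene C4, was 2.43-fold higher with 5% pdRBC and 2.65-fold with hRBC. TSPAN13, a tetraspanin, was 2.43-fold higher with 5% pdRBC and 2.75-fold with hRBC. GIMAP4, of the same family as GIMAP7, was 2.92-fold higher (2.35 to 3.59) with 5% pdRBC and 2.52-fold higher (1.75 to 3.49) with hRBC; the other measured family member, GIMAP6, was not called, with folds of 1.28 with 5% pdRBC and 1.13 with hRBC.

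MHC class I genes, whose products show peptides from inside the cell to T cells, were higher in members, and so were several interferon-induced genes. Of 7 measured genes of the class I and antigen presentation list, 4 were higher and 0 lower, beside 4.00% higher over all genes; the list's median log2 fold was 0.74 with 5% pdRBC and 0.77 with hRBC. B2M, the shared light chain, was at 827 CPM in members against 360.5 CPM in the remaining barcodes with 5% pdRBC. In hRBC members B2M was at 810.4 CPM, against 362 CPM in the remaining hRBC barcodes. HLA-C was 2.42-fold higher (2.09 to 2.78) with 5% pdRBC and 2.59-fold higher (2.09 to 3.15) with hRBC; class I heavy chain genes are similar and variable and their reads may be split in counting, so its level is uncertain. PDIA3, which helps load class I molecules, was 1.67-fold higher with 5% pdRBC and 1.70-fold with hRBC. The list held more of each cell's RNA in members: a median of 0.246% of UMIs against 0.143% in the remaining barcodes with 5% pdRBC, and with hRBC 0.308% in members against 0.158% in the remaining barcodes. Of 6 measured interferon response genes 3 were higher and 0 lower, with median log2 folds of 0.76 with 5% pdRBC and 0.55 with hRBC. IFI27 was 2.01-fold higher (1.81 to 2.23) with 5% pdRBC and 1.91-fold higher (1.62 to 2.23) with hRBC, IFITM3, which blocks virus entry, 1.68-fold higher (1.55 to 1.82) with 5% pdRBC and 1.81-fold higher (1.62 to 2.01) with hRBC, and ISG15, a ubiquitin-like protein, 1.74-fold higher (1.46 to 2.05) with 5% pdRBC and 1.66-fold higher (1.27 to 2.12) with hRBC.

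Interferon-induced promoters often hold the motif TTTCNNTTTC within the interferon-stimulated response element. The promoter stretches of B2M, ISG15 and IFITM3 are shown because these genes were higher together, and that of GIMAP7 because it is one of the 6 genes; each runs from 250 bases before to the base before the annotated start in RefSeq (GRCh38.p14). They lie upstream of the first exon at chr15:44711267-44711516 (+ strand), chr1:1013247-1013496 (+ strand), chr11:320861-321110 (- strand) and chr7:150514622-150514871 (+ strand), and are written 5′ to 3′ on the gene's strand with matches of the motif on either strand in capitals. Overlapping matches join into 1 run in B2M and ISG15. Of the 6 genes only GIMAP7 was looked up, so its match says nothing about the others.

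B2M: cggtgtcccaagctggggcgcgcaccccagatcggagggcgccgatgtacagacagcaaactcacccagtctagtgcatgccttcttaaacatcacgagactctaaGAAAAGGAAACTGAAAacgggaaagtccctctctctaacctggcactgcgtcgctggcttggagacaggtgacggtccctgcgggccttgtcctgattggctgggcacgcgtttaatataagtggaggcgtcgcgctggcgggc

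ISG15: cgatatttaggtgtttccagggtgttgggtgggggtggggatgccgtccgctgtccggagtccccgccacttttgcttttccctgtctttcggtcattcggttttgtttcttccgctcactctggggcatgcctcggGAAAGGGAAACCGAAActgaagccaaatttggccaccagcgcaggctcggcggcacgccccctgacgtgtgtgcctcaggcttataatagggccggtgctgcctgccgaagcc

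IFITM3: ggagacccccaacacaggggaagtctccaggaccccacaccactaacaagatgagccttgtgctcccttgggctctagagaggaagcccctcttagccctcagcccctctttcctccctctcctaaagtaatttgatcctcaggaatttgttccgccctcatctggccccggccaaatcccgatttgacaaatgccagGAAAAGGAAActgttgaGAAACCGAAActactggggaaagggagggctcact

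GIMAP7: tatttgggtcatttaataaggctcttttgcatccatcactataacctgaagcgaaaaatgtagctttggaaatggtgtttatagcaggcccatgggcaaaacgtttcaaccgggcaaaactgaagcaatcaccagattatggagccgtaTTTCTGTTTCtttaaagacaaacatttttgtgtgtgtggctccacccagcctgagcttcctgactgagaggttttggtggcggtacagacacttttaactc

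The motif occurs in 3.02% of 35116 promoter stretches of this length. Of the genes of the class I and interferon lists that were higher, 5 were matched to the promoter table, and 4 of these held it (B2M, IFI27, IFITM3 and ISG15, but not HLA-C). A match is a description of letters and not a site of binding.

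Genes of the contractile apparatus and of haemostasis were next. Beside 4.00% of all measured genes higher and 4.32% lower, 5 of 27 measured actin and contractile genes were higher and 0 lower, with median log2 folds of 0.07 with 5% pdRBC and 0.13 with hRBC. The myosin light chain MYL6 was 1.76-fold higher (1.71 to 1.82) with 5% pdRBC and 1.82-fold higher (1.74 to 1.90) with hRBC. MYL12A, a regulatory light chain, was 1.96-fold higher (1.87 to 2.06) with 5% pdRBC and 1.99-fold higher (1.84 to 2.15) with hRBC, and MYL12B, named after its values were seen, was 1.55-fold higher with 5% pdRBC and 1.59-fold with hRBC. The actin-severing protein CFL1 was 1.69-fold higher with 5% pdRBC and 1.69-fold with hRBC. MYH10, a non-muscle myosin heavy chain, was at 81.9 CPM in members against 24.6 CPM in the remaining barcodes with 5% pdRBC. In hRBC members MYH10 was at 32.8 CPM, against 19.3 CPM in the remaining hRBC barcodes. Of 13 measured coagulation and fibrinolysis genes, 4 were higher and 1 lower. TFPI2, an inhibitor of plasmin and other proteases, was at 499.8 CPM in members against 116 CPM in the remaining barcodes with 5% pdRBC, and 387 CPM in members against 169 CPM in the remaining barcodes with hRBC, and TFPI, which inhibits tissue factor, was 2.03-fold higher (1.86 to 2.21) with 5% pdRBC and 1.74-fold higher (1.48 to 2.02) with hRBC. ANXA2, which assembles plasminogen with its activator, was 1.61-fold higher (1.56 to 1.66) with 5% pdRBC and 1.81-fold higher (1.73 to 1.89) with hRBC, and GAS6, a vitamin K-dependent ligand like MGP in its carboxylation, was 1.66-fold higher (1.35 to 2.01) with 5% pdRBC and 1.61-fold higher (1.16 to 2.15) with hRBC. THBD, the thrombin receptor that starts protein C activation, was 1.90-fold lower (1.41 to 2.65) with 5% pdRBC and 1.80-fold lower (1.13 to 3.28) with hRBC. Of 5 measured genes of insulin-like growth factor signalling 2 were higher: the binding protein IGFBP4 was 1.80-fold higher with 5% pdRBC and 1.60-fold with hRBC, and IGFBP7 was 1.72-fold higher with 5% pdRBC and 1.73-fold with hRBC. Of 24 measured basement membrane and matrix genes 2 were higher and 1 lower, which is near the shares over all genes and is no result about the list. SPARC, a collagen-binding protein, was 1.64-fold higher with 5% pdRBC and 1.74-fold with hRBC, and BGN, a small proteoglycan, was 1.80-fold higher with 5% pdRBC and 1.51-fold with hRBC. LOX, which crosslinks collagen, was 2.59-fold lower (1.78 to 4.07) with 5% pdRBC and 3.42-fold lower (1.76 to 9.18) with hRBC. ID1, a target of bone morphogenetic protein signalling, which MGP restrains, was 1.63-fold higher (1.55 to 1.72) with 5% pdRBC and 1.71-fold higher (1.58 to 1.86) with hRBC, and of the 19 measured genes of that pathway and of TGF-beta signalling it was the only one higher; FST and INHBA were lower, INHBA 2.13-fold lower (1.76 to 2.62) with 5% pdRBC and 2.53-fold lower (1.80 to 3.80) with hRBC.

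Among the 15 genes with the largest folds lower in both libraries were RGS4, PTX3 and NRG1. RGS4, which shuts off G protein signals, was at 9.22 CPM in members against 105 CPM in the remaining barcodes with 5% pdRBC. In hRBC members RGS4 was at 15.7 CPM, against 100.1 CPM in the remaining hRBC barcodes. It was 11.1-fold lower (7.09 to 19.6) with 5% pdRBC and 6.11-fold lower (3.55 to 12.8) with hRBC. PTX3, a secreted pentraxin of innate immunity, was 5.65-fold lower (4.15 to 8.12) with 5% pdRBC and 10.5-fold lower (5.46 to 28.2) with hRBC. NRG1, a growth factor of ErbB receptors, was at 21.7 CPM in members against 124 CPM in the remaining barcodes with 5% pdRBC. In hRBC members NRG1 was at 32.8 CPM, against 109.9 CPM in the remaining hRBC barcodes. DDX10, an RNA helicase of ribosome assembly, was 5.50-fold lower (4.01 to 7.99) with 5% pdRBC and 2.96-fold lower (1.93 to 5.07) with hRBC. LETM2, of a family of mitochondrial membrane proteins, was 11.9-fold lower (5.20 to 49.5) with 5% pdRBC on 4 UMIs in members, and was 4.57-fold lower (1.98 to 19.0) with hRBC on another 4. HIF1A-AS3, an antisense RNA of the HIF1A locus, was 3.45-fold lower (2.07 to 6.80) with 5% pdRBC; hRBC members gave 0 UMIs, which is at least 6.01-fold lower than the 25.7 CPM of the remaining barcodes if 3 UMIs in the group are allowed. Whether counting used strand is not given, so its reads cannot be told from those of genes on the other strand. TNFRSF6B, a decoy receptor, rested on 10 UMIs with 5% pdRBC and 2 with hRBC, and was 3.18-fold lower (1.78 to 7.04) with 5% pdRBC and 9.93-fold lower (3.40 to 103) with hRBC. MARCH4, HRCT1, MIR222HG, GRB14, LMO7, ZNF185 and SERTAD2 were each 3.10-fold or more lower with 5% pdRBC and 3.12-fold or more lower with hRBC.

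Metallothioneins, small proteins that bind zinc, copper and cadmium, were lower in members. Of 3 measured metallothionein list genes 2 were lower and 0 higher, beside 4.32% lower over all genes, with medians of -1.58 with 5% pdRBC and -1.52 with hRBC. MT2A, an abundant gene, was at 962 CPM in members against 3787 CPM in the remaining barcodes with 5% pdRBC. In hRBC members MT2A was at 1622 CPM, against 4663 CPM in the remaining hRBC barcodes. That is 3.94-fold lower (3.76 to 4.13) with 5% pdRBC and 2.87-fold lower (2.71 to 3.05) with hRBC, although 1 cell held 24.8% of its UMIs in hRBC members. MT1E was 2.99-fold lower (1.97 to 4.98) with 5% pdRBC and 6.35-fold lower (3.14 to 18.8) with hRBC; metallothionein genes resemble each other and reads may be split among them. SLC30A1, a zinc exporter in the same list, was not called, at ratios of remaining barcodes to members of 1.26 with 5% pdRBC and 1.17 with hRBC. The promoter of MT2A is shown because it is the most abundant gene that was lower; matches of the core metal response element TGCNCNC on either strand, 7 in all, are in capitals, over 250 bases at chr16:56608334-56608583 (+ strand) in RefSeq (GRCh38.p14).

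MT2A: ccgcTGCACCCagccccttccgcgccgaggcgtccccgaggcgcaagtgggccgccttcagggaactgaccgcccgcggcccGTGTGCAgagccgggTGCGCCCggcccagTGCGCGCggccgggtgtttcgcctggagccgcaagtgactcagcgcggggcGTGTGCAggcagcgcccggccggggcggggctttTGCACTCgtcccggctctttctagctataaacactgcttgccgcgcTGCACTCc

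The motif is short, and 49.1% of 35116 promoter stretches hold at least 1 match. Of 16 measured heme and oxidant response genes 3 were higher and 2 lower, so they did not move one way; median log2 folds were -0.48 with 5% pdRBC and -0.19 with hRBC. NQO1 and PIR, named after their values were seen, were higher, as PRDX1 was: NQO1 was 1.54-fold higher with 5% pdRBC and 1.91-fold with hRBC, and PIR was 1.66-fold higher with 5% pdRBC and 1.54-fold with hRBC. SRXN1, which repairs oxidised peroxiredoxins, was 3.04-fold lower (2.64 to 3.53) with 5% pdRBC and 1.87-fold lower (1.54 to 2.32) with hRBC, and TXNRD1, thioredoxin reductase, also named after its values were seen, 1.69-fold lower (1.60 to 1.78) with 5% pdRBC and 1.62-fold lower (1.49 to 1.76) with hRBC. HMOX1, the enzyme that breaks down heme, was at 389.8 CPM in members against 836 CPM in the remaining barcodes with 5% pdRBC, and 478 CPM in members against 676 CPM in the remaining barcodes with hRBC; it was under 1.5-fold with hRBC and was not called. The ferritin chains FTH1 and FTL, also picked after their values were seen, store iron and were abundant. FTH1 was at 23581 CPM in members against 37905 CPM in the remaining barcodes with 5% pdRBC. In hRBC members FTH1 was at 22978 CPM, against 31424 CPM in the remaining hRBC barcodes. FTL was at 19601 CPM in members against 36108 CPM in the remaining barcodes with 5% pdRBC. In hRBC members FTL was at 19493 CPM, against 28761 CPM in the remaining hRBC barcodes. Neither chain was called, since neither reached 1.5-fold with hRBC. With the ferritin chains the list took a median of 4.65% of a member's UMIs against 7.62% in the remaining barcodes with 5% pdRBC, and with hRBC 4.95% of a member's UMIs against 6.41% in the remaining barcodes.

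Some immediate early genes, NF-kB targets, YAP/TAZ targets and G2 and M phase genes were lower in members, beside 4.32% lower over all measured genes. Of 16 measured immediate early genes 4 were lower and 0 higher. Log2 folds lay above 0 for 5 of the 16 with 5% pdRBC and for 4 with hRBC. FOS was among these in both libraries, at 0.45 with 5% pdRBC and 0.85 with hRBC, and was not called. The list took a median of 0.119% of a member's UMIs against 0.135% in the remaining barcodes with 5% pdRBC. With hRBC it took 0.112% in members against 0.115% in the remaining barcodes. FOSL1, a FOS relative, was 2.69-fold lower with 5% pdRBC and 1.66-fold with hRBC, and IER5 was 2.15-fold lower with 5% pdRBC and 2.77-fold with hRBC. KLF10 was 1.93-fold lower with 5% pdRBC and 1.75-fold with hRBC, and DUSP1, a phosphatase of MAP kinases named after its values were seen, was 1.69-fold lower with 5% pdRBC and 1.60-fold with hRBC. Of 11 measured NF-kB targets 3 were lower and 0 higher: PTX3, BCL3, which was 1.76-fold lower with 5% pdRBC and 1.72-fold with hRBC, and NFKB1, which was 1.53-fold lower with 5% pdRBC and 2.03-fold with hRBC. Of 15 measured YAP/TAZ targets 3 were lower and 0 higher: ANKRD1 was 2.51-fold lower with 5% pdRBC and 2.67-fold with hRBC, the receptor kinase AXL was 3.89-fold lower (2.99 to 5.27) with 5% pdRBC and at 44.2 CPM in members against 113 CPM in the remaining barcodes with hRBC, and the kinase LATS2 was 1.59-fold lower with 5% pdRBC and 1.83-fold with hRBC. Of 10 measured G2 and M phase genes 3 were lower and 0 higher, MKI67, CENPE and TPX2, on 13 to 34 UMIs in members with 5% pdRBC and 7 each with hRBC; 14 of the 213 members (6.57%) were among the top 10% of kept barcodes by these genes. The list as a whole took a median of 0.0223% of a member's UMIs against 0.0284% in the remaining barcodes with 5% pdRBC, but with hRBC 0.0400% in members against 0.0318% in the remaining barcodes, the opposite direction. Of 10 measured laminar flow genes PODXL and THBD were lower and NQO1 higher. KLF2 and NOS3, the flow-induced factor and nitric oxide synthase, were picked after their values were seen and were not called: KLF2 was at 112 CPM in members against 160.3 CPM in the remaining barcodes with 5% pdRBC. In hRBC members KLF2 was at 134 CPM, against 149 CPM in the remaining hRBC barcodes. CXCL1, a chemokine, was 2.49-fold lower (1.53 to 4.65) with 5% pdRBC and 10.8-fold lower (3.71 to 112) with hRBC, on 15 UMIs in members with 5% pdRBC and 2 with hRBC; with the top 20% taken as members its fold with 5% pdRBC turned round, to a log2 fold of 0.14. Of 82 measured ribosomal protein genes and 13 mitochondrially encoded genes 0 were called in either direction.

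**Figure D3:**
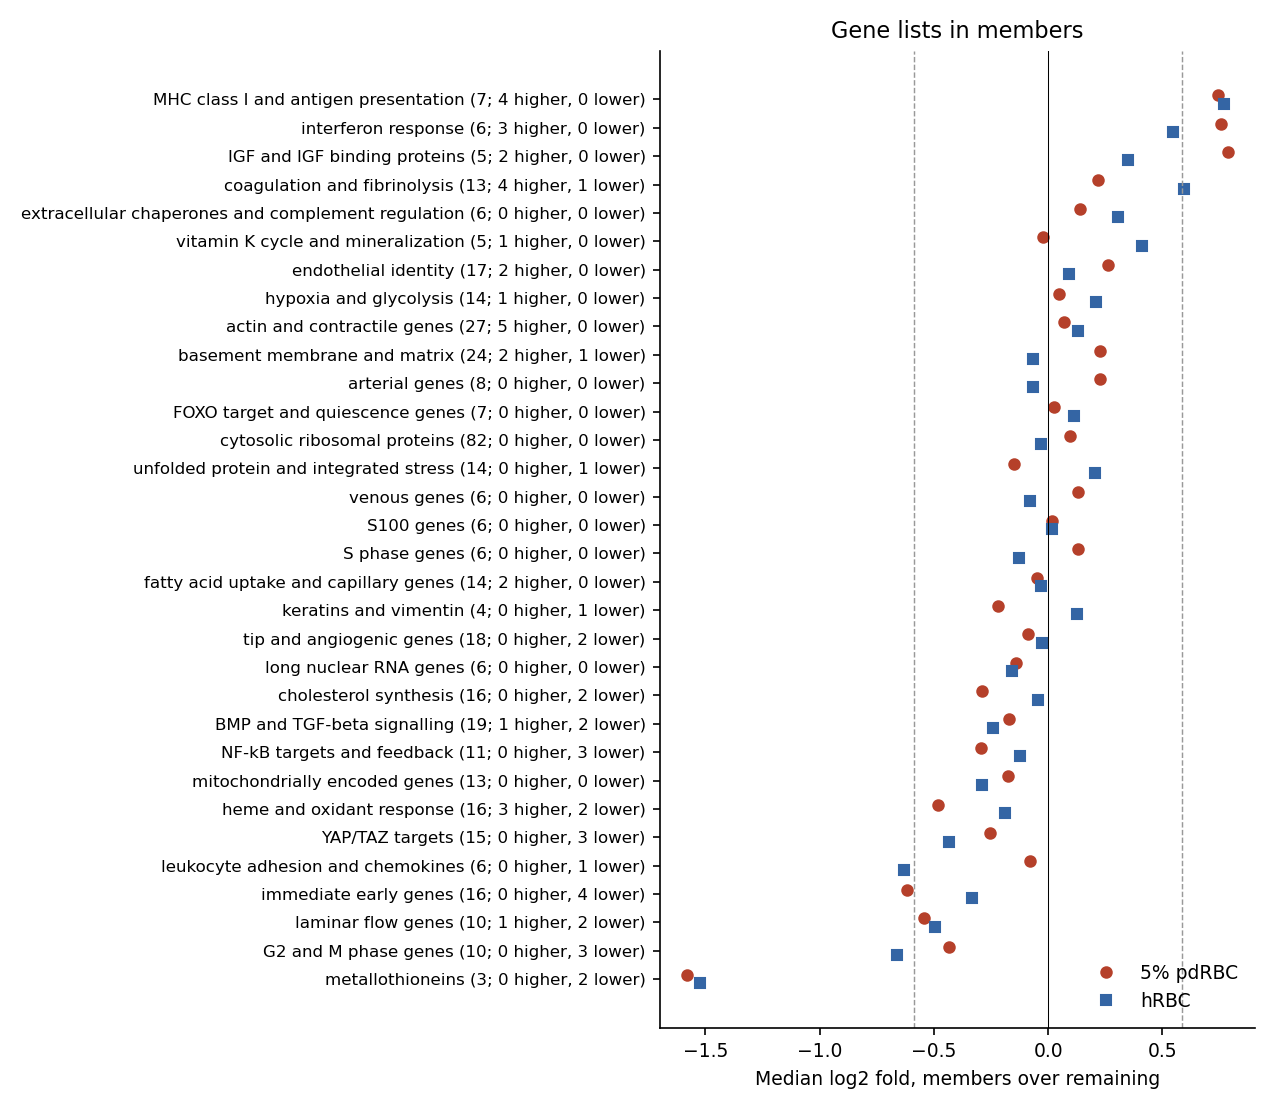
Median log2 fold of members over remaining barcodes for each gene list with 3 or more measured genes, 5% pdRBC as circles drawn above hRBC as squares; labels give the number of measured genes and how many were higher and lower. MHC class I genes at 0.74 and 0.77 and metallothioneins at -1.58 and -1.52 lie beyond the dashed lines of 1.5-fold in both libraries, and most lists lie near 0.

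For the genes described here the levels changed along the 6-gene share below the members as well. Kept barcodes were cut into 10 equal groups by the share, each library read apart. From the lowest group over the group next to the members to the members, ITM2B was at 122, 327 and 549 CPM with 5% pdRBC and at 104, 354 and 552 CPM with hRBC. RGS4 was at 173, 21.7 and 9.22 CPM in these groups with 5% pdRBC and at 171, 19.2 and 15.7 CPM with hRBC. HLA-C stayed between 34.5 and 58.1 CPM over the 6 lowest groups with 5% pdRBC and reached 94.3 CPM in the group below the members and 144 CPM in the members. VWF, the platelet-binding protein stored in endothelial granules, was at 760 CPM in members against 207 CPM in the lowest group with 5% pdRBC, while with hRBC its highest level, 556 CPM, was in the group 2 places below the members, and members were at 458 CPM. TFPI2 with hRBC was also highest below the members, at 466 CPM in the group next to them against 387 CPM in members. With 5% pdRBC these groups were at 314 and 499.8 CPM.

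**Figure D4:**
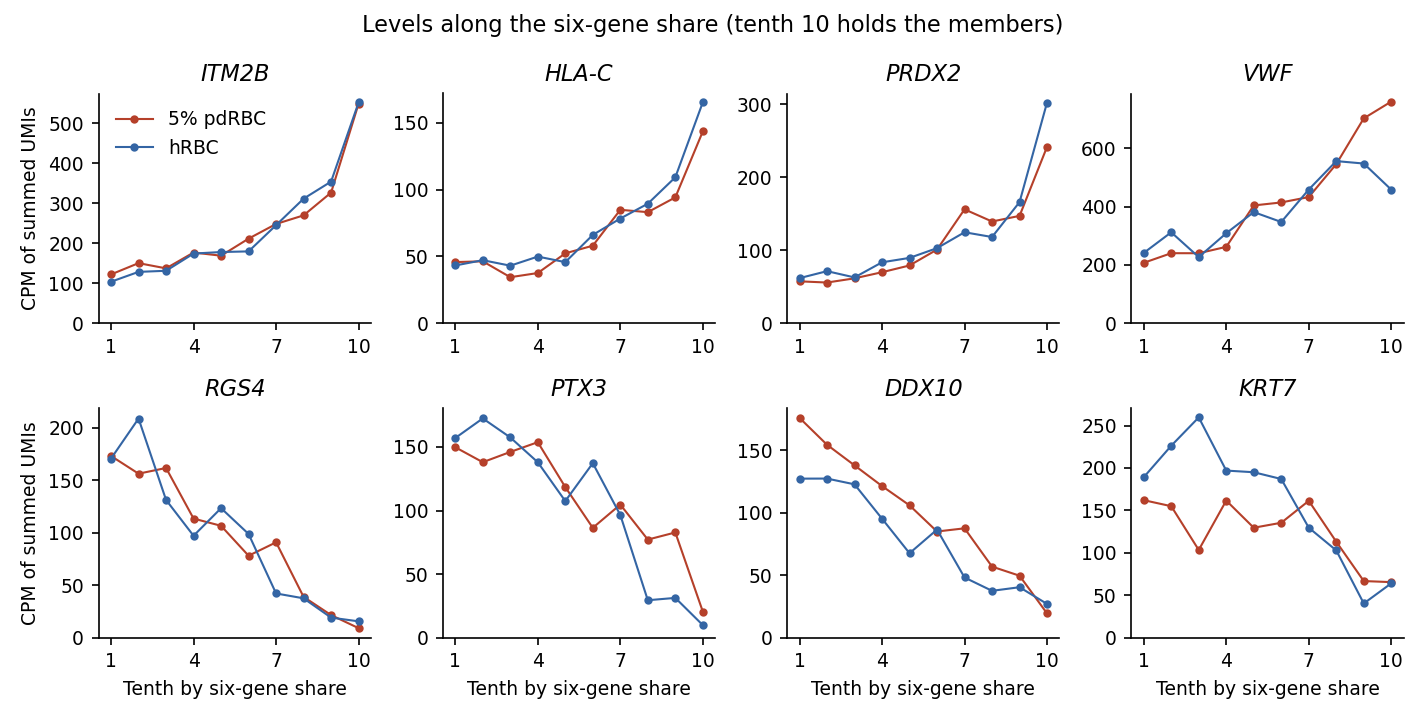
Level (CPM of summed UMIs, vertical axes from 0) of 8 genes in 10 groups of kept barcodes ordered by 6-gene share from low to high, 5% pdRBC in red and hRBC in blue; group 10 holds the members. ITM2B, HLA-C and PRDX2 climb to the members, and RGS4, PTX3 and DDX10 decline towards them. KRT7 is lower in the upper groups, but with hRBC it is lowest in the group next to the members. VWF is highest in members with 5% pdRBC but not with hRBC.

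Members overlapped with the top 10% of barcodes by some other gene sets more than by others, each set also holding 213 barcodes. With the MHC class I list they shared 99 barcodes (46.5% of each set), 68 of them with 5% pdRBC and 31 with hRBC. With VWF they shared 44 (20.7%), 42 with 5% pdRBC and 2 with hRBC. With immediate early genes they shared 23 (10.8%), with S phase genes and with CCN1, CCN2 and THBS1 18 each (8.45%), with KLF2 and NOS3 12 (5.63%), and with KRT7, TGFB2 and FST 11 (5.16%). With APLN, a peptide of sprouting endothelium, and MEST they shared 7 (3.29%), with metallothioneins 2 (0.939%) and with the heme and oxidant list 1 (0.469%). Each set is 10% of the kept barcodes, so 10% of members is the base share. The overlaps with immediate early and S phase genes lie near it. The VWF set held 25.8% of 5% pdRBC members and 11.8% of kept 5% pdRBC barcodes. It held 4% of hRBC members and 6.76% of kept hRBC barcodes. The immediate early set held 12.9% of 5% pdRBC members and 13.7% of kept 5% pdRBC barcodes. In hRBC these shares were 4% and 3.38%. All barcodes share the depth of their library, and no test of these overlaps was made. APLN itself was 1.89-fold lower (1.42 to 2.62) with 5% pdRBC and 7.27-fold lower (3.17 to 30.1) with hRBC, on 47 UMIs in members with 5% pdRBC and 4 with hRBC. KRT7 was 2.01-fold lower (1.68 to 2.44) with 5% pdRBC and 2.61-fold lower (1.96 to 3.63) with hRBC, and FST 9.82-fold lower (4.27 to 40.7) with 5% pdRBC and 2.38-fold lower (1.37 to 5.02) with hRBC.

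Within members, 5% pdRBC was compared with hRBC over the 4002 genes with 100 or more UMIs in members of both libraries together, and a gene counts as higher or lower at 1.5-fold with the interval leaving out 1. By this limit 231 genes (5.77%) were higher and 107 (2.67%) lower with 5% pdRBC. Members held 1852249 UMIs with 5% pdRBC and 703409 with hRBC. A gene high with 5% pdRBC therefore reaches the summed minimum more easily, so these counts are no support for a direction. The split also depends on scaling: with TMM factors, which align the bulk of genes, it was 161 higher and 199 lower. There are 163 members on one side and 50 on the other, from 1 library each, so treatment, device and library cannot be told apart.

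Among the largest folds higher with 5% pdRBC in members were those of CXCL8, CCL2, ZFP36 and FOS. CXCL8, the neutrophil attractant, was at 59.1 CPM in 5% pdRBC members against 5.71 CPM in hRBC members, 9.25-fold higher (3.93 to 38.7); this rests on 109 UMIs, 39.4% of them in 1 cell, against 4 UMIs, and in the remaining barcodes it was at 79.3 CPM with 5% pdRBC against 42.3 CPM with hRBC. CCL2, the monocyte attractant, was at 150.2 CPM in 5% pdRBC members against 42.8 CPM in hRBC members, 3.46-fold higher (2.40 to 5.30), although 1 cell held 26.7% of its 30 UMIs in hRBC members; in the remaining barcodes it was at 86.9 CPM with 5% pdRBC against 78.4 CPM with hRBC. Of 19 chemokine and leukocyte adhesion genes 5 were measured within members, and these 5 (CXCL8, CCL2, IL32, ICAM2 and CCL14) were higher, beside 5.77% over all genes. CCL14 was chosen after its values were seen. CXCL8 and CCL14, with 4 and 16 UMIs in hRBC members, reached the minimum through their UMIs in 5% pdRBC members, so their place in this count is no support for a direction of the list. ICAM1 was below the minimum, with 39 UMIs in 5% pdRBC members against 14 in hRBC members and a log2 fold of 0.05. IL32 was 1.52-fold higher (1.12 to 2.13). Of 12 measured immediate early genes 8 were higher and 1 lower with 5% pdRBC, with a median of 0.81 in members and 0.90 in the remaining barcodes. FOS was at 139 CPM in 5% pdRBC members against 45.7 CPM in hRBC members, 3.01-fold higher (2.11 to 4.56), and in the remaining barcodes at 102 CPM with 5% pdRBC against 25.6 CPM with hRBC. ZFP36, which degrades inflammatory mRNAs, was 3.55-fold higher (2.11 to 6.88) in members and 3.88-fold higher (3.25 to 4.69) in the remaining barcodes, and its relative ZFP36L1 was 2.78-fold higher (1.93 to 4.25) in members. FOSL1 was 1.53-fold lower (1.16 to 2.01). CLDN5, the claudin of tight junctions, was at 110.0 CPM in 5% pdRBC members against 44.2 CPM in hRBC members, 2.45-fold higher (1.70 to 3.76), and in the remaining barcodes at 47.2 CPM with 5% pdRBC against 41.1 CPM with hRBC. PCDH7, a protocadherin, was 3.78-fold higher, and LIMCH1, an activator of non-muscle myosin, was 3.42-fold higher (1.86 to 7.69). CSK, a kinase that restrains Src, was 3.15-fold higher (1.79 to 6.52). MIR99AHG, CPD and ST6GAL1 were 4.07-fold higher, 3.42-fold higher and 3.02-fold higher. These 6 genes rest on 9 to 12 UMIs each in hRBC members, and reached the minimum mainly through their UMIs in 5% pdRBC members. VWF was at 760.0 CPM in 5% pdRBC members against 458 CPM in hRBC members, 1.66-fold higher (1.47 to 1.88), and in the remaining barcodes at 382 CPM with 5% pdRBC against 378 CPM with hRBC.

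Among the genes lower with 5% pdRBC in members were LINGO1, DKK1, SLC9A3R2 and SOX18. LINGO1, a leucine-rich membrane protein, was at 18.4 CPM in 5% pdRBC members against 99.9 CPM in hRBC members, 5.38-fold lower (3.55 to 8.42), and was lower in the remaining barcodes too, at 16.8 CPM with 5% pdRBC against 152 CPM with hRBC. LINGO1 reached the summed minimum mainly through its UMIs in hRBC members. DKK1, a secreted Wnt inhibitor, was at 38.5 CPM in 5% pdRBC members against 151 CPM in hRBC members, 3.92-fold lower (2.88 to 5.38), and in the remaining barcodes at 143 CPM with 5% pdRBC against 188 CPM with hRBC. SLC9A3R2, a scaffold that ties membrane proteins to the cytoskeleton, was at 274 CPM in 5% pdRBC members against 842 CPM in hRBC members, 3.07-fold lower (2.73 to 3.47). UROD, an enzyme of heme synthesis, was 1.96-fold lower (1.61 to 2.38) in members, at 134 CPM in 5% pdRBC members against 264 CPM in hRBC members, and in the remaining barcodes at 82.6 CPM with 5% pdRBC against 86.6 CPM with hRBC. SOX18 was 1.89-fold lower (1.69 to 2.12) in members and 1.68-fold lower (1.59 to 1.77) in the remaining barcodes. MRPS33, ABI3, MFSD1, DYNLT3, TUBB4B, CKS1B and WDR18 were 1.90 to 2.28-fold lower. MT2A was 1.69-fold lower (1.56 to 1.82) in members, and the same gene was 1.23-fold lower (1.22 to 1.25) in the remaining barcodes. The class I genes had no called difference: B2M was at 827 CPM in 5% pdRBC members against 810.4 CPM in hRBC members, and of 7 class I list genes 0 were higher and 0 lower, with a median of -0.06. Likewise 0 of 5 measured interferon response genes were called, with a median of -0.10. The differences between the folds in members and those in the remaining barcodes were not tested.

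**Figure D5:**
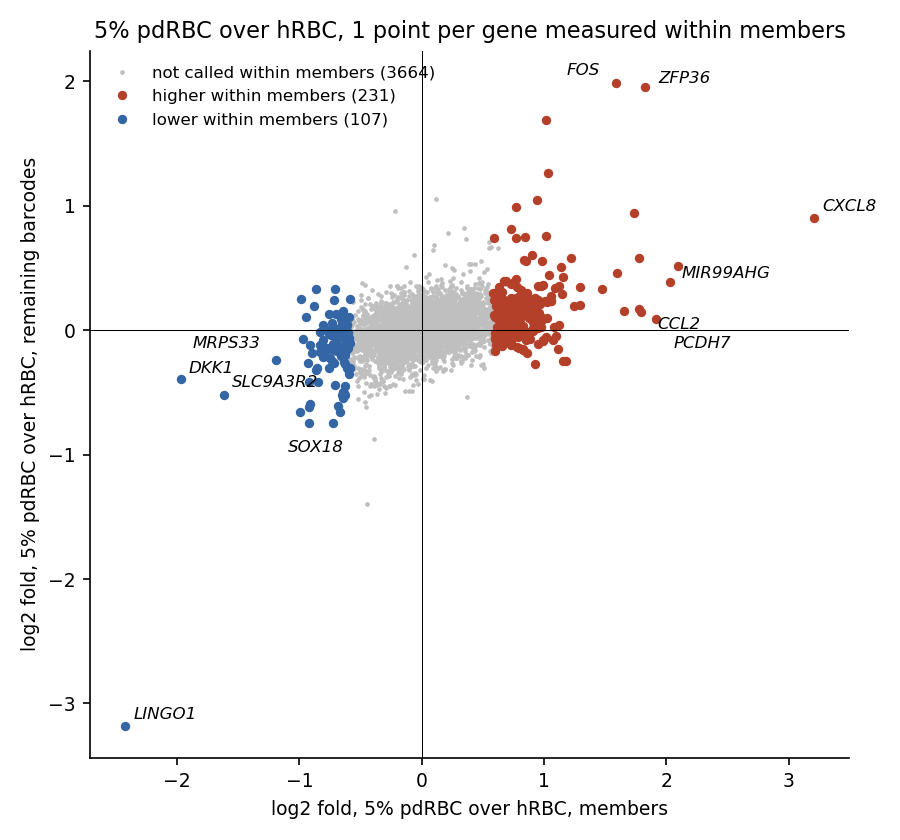
Log2 fold of 5% pdRBC over hRBC in members (horizontal axis) and in the remaining barcodes (vertical axis), 1 point for each of 4002 genes measured within members; red marks the 231 genes higher and blue the 107 lower in members. CXCL8 and MIR99AHG lie far right, FOS and ZFP36 are high on both axes, LINGO1 is low on both, and CCL2, PCDH7 and DKK1 lie far from 0 in members and near it in the remaining barcodes.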

How the data were processed

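Single-cell 5′ RNA was measured in 1 library per group, on HUVECs after 4 hours of perfusion. The authors deposited UMI counts per gene and barcode; per the submitters' processing notes they used Cell Ranger 7.0.0 and GRCh38. The annotation release, and whether counting used strand, were not given in the sources used here. Of 36601 genes, 34616 (94.6%) were matched by ID to a GENCODE annotation.

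Barcodes with 5000 or more UMIs and at most 10% mitochondrial UMIs were kept, and the top 10% by 6-gene share, libraries pooled, were the members. No doublet caller was run and no doublets were removed. UMIs were summed per library and group, and folds are ratios of CPM (UMIs per 1e6 UMIs) with 0.5 UMIs added. Intervals are 95% exact ones: Clopper-Pearson on the split of a gene's UMIs between groups, and binomial for shares; they cover counting error only. Genes needed 200 UMIs per library, or 100 within members. The steps were checked on simulated data. Python 3.11.15, NumPy 2.4.6, SciPy 1.17.1, Matplotlib 3.10.9 and, for TMM factors, R 4.3.3 with edgeR 4.0.16 were used.

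Named genes are the 15 largest called folds in each direction between members and remaining barcodes, ranked by the smaller of both libraries' folds, the 12 in each direction within members, and up to 4 of each list; clone-named, LINC, ribosomal protein and mitochondrial genes were left out, and other names are said to be chosen after their values were seen. Some genes that this rule names are not reported here. The members, lists and limits were chosen with earlier results of these data known. Totals were 16158876 UMIs with 5% pdRBC and 14321939 with hRBC. The 14 alternatives cover the member limit, cell filters, weights, depth, gene minimum, scaling, cycling cells and fold, besides each library alone and scores without 1 gene.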

Additional observations from a re-analysis of the deposited data

Results flagged for a closer look

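CCL2 and GAMT lay on opposite sides in members. CCL2, the monocyte attractant, had a log2 fold of members over remaining barcodes of 0.79 with 5% pdRBC, at 150.2 CPM in members against 86.9 CPM in the remaining barcodes, and of -0.85 with hRBC, at 42.8 CPM in members against 78.4 CPM in the remaining barcodes. GAMT, an enzyme of creatine synthesis, had a log2 fold of 0.88 with 5% pdRBC, at 41.2 CPM in members against 22.5 CPM in the remaining barcodes, and of -0.86 with hRBC, at 14.3 CPM in members against 27.1 CPM in the remaining barcodes; its hRBC members held 10 UMIs. Each value passed 1.5-fold with a counting interval that left out 1, but each rests on 1 library per group, and the difference between the libraries was not tested. GAMT was chosen after its values were seen.

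Barcodes below the filter, which enter no comparison, also held the 6 genes. With 5% pdRBC 29 of 266 such barcodes (10.9%) had a 6-gene share at or above that of the lowest member, with a median of 3223 UMIs, and with hRBC 297 of 3089 (9.61%) did, with a median of 1206 UMIs. A few UMIs reach the limit at such depths, so these shares are not compared with those of kept barcodes.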

How the results depend on the processing

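The genes named for the largest folds, 15 per direction against remaining barcodes and 12 per direction within members, were read under the 14 alternatives. Of 60 member values 59 to 60, and of 24 values within members 16 to 24, stayed past the fold and the interval. None (0) turned round. These genes were chosen as the largest called folds of the same data, so that most stayed past the limits was built in. With every cell weighted equally the interval was taken from mean CPM, so it is no counting interval there. A changed gene minimum or fold limit leaves every fold as it is, so under those alternatives no value could turn round. Genes below the higher minimum were still counted, such as CD40 with 41 UMIs in hRBC members and 163 in the remaining hRBC barcodes. The values at that minimum therefore test nothing. Counts of called genes moved more. For members against remaining barcodes, the 252 genes higher and 272 lower became 163 and 171 with the top 20%, 137 and 108 with cells thinned to 5000 UMIs, 162 and 154 with members chosen on one part of the UMIs and read on the other, 159 and 139 with 2.5 times the gene minimum, 42 and 81 at 2-fold, 414 and 537 in the 5% pdRBC library alone and 498 and 691 in the hRBC library alone. Within members the 231 genes higher with 5% pdRBC became 125 with the top 5%, 153 with the top 10% of each library, 121 at 10000 UMIs, 88 with thinned cells, 113 with divided UMIs, 372 with a lower and 55 with a higher gene minimum, and 41 at 2-fold. The 107 lower became 166 with a lower and 37 with a higher gene minimum, 199 with TMM factors and 4 at 2-fold. Fewer UMIs, cells or genes enter under thinning, division, the stricter filters and the higher minimum; the cause of the other changes was not tested. Of the lists with 3 or more measured genes, the 2 with a median past 1.5-fold in both libraries became 4 with the top 5%, 4 without the barcodes highest in G2 and M phase genes and 1 at 2-fold. The hRBC share of members became 8.80% at 2000 UMIs and 20% mitochondrial UMIs, against 6.50%. CXCL1 turned round with the top 20% and 5% pdRBC, to a log2 fold of 0.14 against -1.32. No paired analysis was possible because each group is 1 library. A count of 0 in the 50 hRBC members still allows a level of up to 4.28 CPM.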
